A study of Mus musculus with 21 samples.

Results

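Septins are GTP-binding proteins that assemble into rods and filaments at membranes and beside actin and microtubules. The family falls into subgroups named after SEPT2, SEPT3, SEPT6 and SEPT7, and members of 1 subgroup can stand in for each other at the same place in the rod. In the testis septins are best known for the annulus, a ring between the midpiece and the principal piece of the sperm tail that forms while spermatids elongate, and somatic cells use them in division, cell shape and scaffolding. The 10 genes described here, Sept2, Sept4, Sept6, Sept7, Sept8, Sept9, Sept10, Sept11, Sept12 and Sept14, were taken by symbol from a table of 55453 gene symbols. The set was selected on measured values of these libraries, since Sept14 is among the largest differences in level between the heated genotypes. The heated libraries were thus used to choose it, so its values in every comparison that holds them are a description, with no test, and counts of septins there leave it out. Sept2 stands on 2 entries of the table, so the 10 genes fill 11 entries, and all 11 had a mean of at least 1 TPM (transcript abundance corrected for gene length and scaled to the same total in every library) and entered the fit.

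RNA was sequenced in 21 libraries of whole testes from C57BL6 mice. The groups were wild type without heat shock (6 libraries), Mageb4 knockout without heat shock (6), wild type 72 h after heat shock (4) and Mageb4 knockout 72 h after heat shock (5). Mageb4 belongs to the MAGE genes of chromosome X. Age, heating conditions and how the gene was disrupted are not given here by the labels.

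Mageb4 stood at 1.53 to 8.26 TPM over the wild-type libraries and at 0.01 to 0.15 TPM over the knockout libraries. TPM keeps no depth, so the counting error of low values is unknown, and precision was judged from the replicates. Correlation of log2(TPM + 1) between libraries of a group was 0.971 to 0.994. Wild-type heat replicate 3 stood apart by its epididymal transcripts, with 3535 TPM summed over 8 epididymal genes, where replicates 1, 2 and 4 had 13.3 to 20.3 TPM. Leaving it out changed no septin call. Lists of known markers show how the tissue changed at 72 h. The summed level of 13 round spermatid genes was 5.64-fold lower in heated than in unheated wild type and 1.88-fold lower in the heated than in the unheated knockout. That of 12 Sertoli cell genes was 9.13-fold and 3.23-fold higher. That of 11 elongating and condensing spermatid genes was 1.38-fold lower in wild type, where 3 rose, 5 fell and 3 did not pass, and 1.59-fold higher in the knockout, where all 11 rose. The wild-type sum rests on Tnp1, a transition protein of condensing chromatin, at 12448 TPM without and 2704 TPM with heat. Without it the sum was 1.12-fold lower and the groups overlapped. The differentiating spermatogonia list was 8.07-fold and 3.38-fold lower in sum through Dmrtb1 (704 and 32.4 TPM in wild type). Without Dmrtb1 it was 1.96-fold and 1.63-fold higher. These 2 genes, Etv5 of the undifferentiated spermatogonia list and Tbpl1 of the spermatocyte list were named after their values were seen.

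Sept12 and Sept4 were the most abundant septins in unheated testis, and Sept14 was a minor one. Sept12, a testis septin found at the annulus, ran from 230.2 to 281.7 TPM in unheated wild type (median 267.9, n = 6); the unheated knockout had 230.1 to 268.4 TPM (median 251.2, n = 6). Sept4, without which mouse sperm lack an annulus, had 142.6 to 163.8 TPM (median 153.8) and 138.2 to 155.7 TPM (median 148.1) in these groups. These 2 genes held 33.1% and 19.4% on average of the summed TPM of the 13 septins in the table (the 10 members with Sept1, Sept3 and Sept5) in unheated wild type. Next came Sept10 and the second Sept2 entry, at means of 83.5 and 82.1 TPM, whose ranges overlapped, and the first Sept2 entry at 54.6 TPM. Sept7, the only septin of its subgroup, stood at 25.2 ± 1.87 TPM (SD, n = 6). Below it Sept9, Sept6 and Sept14, at 19.6, 17.3 and 14.2 TPM, lay in an order in which Sept9 and Sept6 overlapped and Sept6 and Sept14 did not, while Sept11 and Sept8 stood at 2.40 and 2.27 TPM and overlapped.

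The genes lie on 7 chromosomes and are not clustered. Positions here are from GENCODE M21 on mm10, the build named in the submitters' processing notes, and each gene is protein-coding. Sept14 (ENSMUSG00000034219.15) lies on the minus strand of chromosome 5 at 129683391 to 129708512, and Sept11 on the plus strand of the same chromosome at 93093437 to 93176447. Sept12 (ENSMUSG00000022542.7) lies on chromosome 16 at 4986858 to 4997852, minus strand. Chromosome 11 holds Sept8, Sept4 and Sept9, with Sept4 (ENSMUSG00000020486.18) on the plus strand at 87568903 to 87590539. Sept6 is the X-linked member, at 36911326 to 36991794 of chromosome X. Sept2, Sept7 and Sept10 lie on chromosomes 1, 9 and 10. The annotation has 2 overlapping Sept2 genes on the same strand of chromosome 1, and no source used here says how reads shared by them were divided or which entry belongs to which gene. Sept4 likewise overlaps Gm11492 on the same strand, listed at 78.3 to 91.7 TPM in unheated and 5.93 to 16.7 TPM in heated wild type, and at 56.02 to 82.6 TPM after heat in the knockout, so the 2 levels may share reads.

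The Sept14 and Sept12 promoters hold fewer CpG dinucleotides than the median promoter, while most other matched members have a start above the upper quartile. RefSeq promoter sequences on GRCm38.p6 were matched for 9 of the 10 members, and 3 are shown because Sept14 and Sept12 moved in opposite directions after heat, while Sept10 stands for the promoters rich in CpG. Each is the 250 bases before the RefSeq transcript start, 5′ to 3′ on the gene's strand, with each CpG in capitals. They lie at chr5:129704985-129705234 (minus strand), chr16:4997853-4998102 (minus strand) and chr10:59221501-59221750 (minus strand). The Sept14 window lies inside the span of the gene given above, and 1 of its 3 annotated transcripts holds the bases that follow the window. The Sept10 window also lies inside its gene, which spans 59141627 to 59221847.
Sept14: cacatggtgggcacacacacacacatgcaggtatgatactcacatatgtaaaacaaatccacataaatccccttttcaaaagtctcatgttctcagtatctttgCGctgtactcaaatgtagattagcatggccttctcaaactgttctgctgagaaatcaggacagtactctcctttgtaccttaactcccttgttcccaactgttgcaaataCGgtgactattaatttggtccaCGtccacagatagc
Sept12: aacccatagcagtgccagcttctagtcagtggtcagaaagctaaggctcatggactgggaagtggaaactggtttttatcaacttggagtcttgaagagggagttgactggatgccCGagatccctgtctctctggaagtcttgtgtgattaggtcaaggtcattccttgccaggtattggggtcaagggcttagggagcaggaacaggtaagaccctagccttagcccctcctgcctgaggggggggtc
Sept10: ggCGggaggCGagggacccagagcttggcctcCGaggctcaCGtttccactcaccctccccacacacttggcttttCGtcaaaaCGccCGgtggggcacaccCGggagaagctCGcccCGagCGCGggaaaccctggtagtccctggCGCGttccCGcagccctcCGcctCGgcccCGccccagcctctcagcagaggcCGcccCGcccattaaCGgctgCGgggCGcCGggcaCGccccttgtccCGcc
Sept14 has 3 CpG in this window, Sept12 has 1 and Sept10 has 26, against a median of 6 over 32851 promoters of the same length, with quartiles of 2 and 16. GC content is 42%, 52.8% and 72.4%. The 4 annotated starts of Sept4 have 1 to 9 CpG. Those of Sept2, Sept7, Sept8 and Sept11 have 11 to 36, and the 4 starts of Sept9 have 3 to 23. On either strand, AAGGTCA, the half-site of several nuclear receptors, occurs 94 bases before the Sept12 start shown, at a site that the window of its second start shares, and in 4.08% of all promoters. GTTGCC, the core of the RFX motif, occurs before 2 of the 4 Sept4 starts, whose windows overlap, and in 10.4% of all promoters. TGACG, the half-site of CREB and CREM, occurs before the starts of Sept2, Sept7 and Sept10 and in 17.8%, its palindrome TGACGTCA before none of the members' starts and in 1.55%, and the GATA motif AGATAA before none and in 9.99%. None of the 5 motifs occurs in the Sept14 window. Binding and methylation were not measured in these samples, so the matches describe sequence alone.

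**Figure D1:**
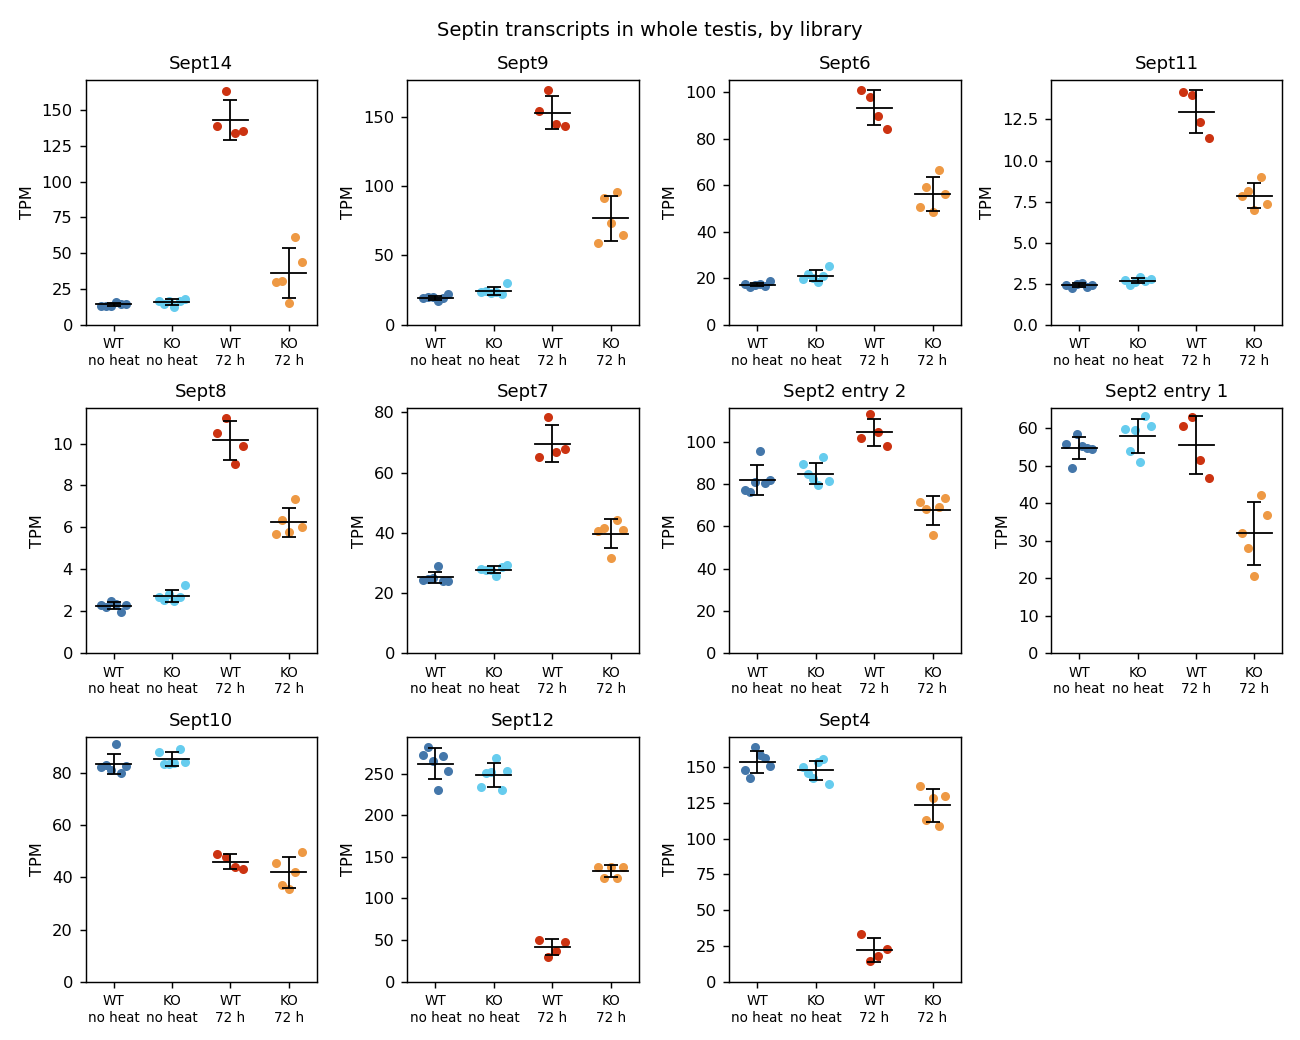
TPM of the 11 septin entries (y axis, linear from 0) in each of the 21 libraries, grouped as wild type (WT) and knockout (KO) without heat and 72 h after heat on the x axis; points are libraries, and lines with bars are the mean and SD. Sept14, Sept9, Sept6, Sept11, Sept8 and Sept7 are highest in heated wild type, Sept12 and Sept4 are lowest there, and Sept10 is lower in both heated groups than in the unheated ones.

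Heat in wild type moved the septins in both directions. Sept12 and Sept4 of the annulus fell, as did Sept10. Sept9, Sept6, Sept11, Sept8 and Sept7 rose, and Sept14 stood higher. Sept9 and Sept14 were then the most abundant single entries, at means of 153 and 143 TPM, while Sept2 over both its entries stood at 159.9 TPM. Of the 10 entries other than Sept14, 9 passed the test, 6 higher and 3 lower (limma on log2(TPM + 1), Benjamini-Hochberg adjusted p under 0.05 over 18977 entries). At the same threshold 91.6% of all entries were called, 47.0% higher and 44.6% lower, and in 86.5% the heated and unheated groups did not overlap, as in 9 of these 10 septin entries, so the number of septins called says nothing particular about the family. The median difference over the 10 entries was 0.89 on the log2(TPM + 1) scale, against 0.065 over all entries. In whole testis, fewer cells of a type and less RNA per cell cannot be told apart, here and in every comparison that follows. TPM sums to the same total in every library. A rise in TPM therefore cannot be told apart from a larger share left by the loss of other transcripts.

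Among the falling septins, Sept4 stood at 33.6, 14.8, 18.1 and 22.6 TPM in the 4 heated wild-type libraries. Every one lies far under the unheated range of 142.6 to 163.8 TPM, and the ratio of means is 6.89-fold lower (log2 difference -2.79 ± 0.13 SE, adjusted p = 1.035e-14). Sept12 stood at 50.6, 29.96, 37.0 and 47.6 TPM, 6.34-fold lower (-2.66 ± 0.10, adjusted p = 3.104e-16), again with no overlap. In both genes replicate 1 was the highest and replicate 2 the lowest, as it was in the summed round spermatid list (715.4 and 456.2 TPM). Sept10, a septin of the SEPT6 subgroup, stood at 49.1, 47.7, 44.1 and 43.4 TPM, 1.81-fold lower (adjusted p = 2.472e-10). The summed spermatocyte list was 1.61-fold lower beside it, with 7 of 11 genes lower and 3 higher (Sycp1, Sycp3 and Hormad1). That sum rests largely on Tbpl1, at 349.2 TPM without and 39.1 TPM with heat. Without Tbpl1 the list was 1.25-fold lower.

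Sept14, a SEPT6 subgroup gene known mainly from the testis, had the largest difference of the members. It stood at 138.6, 163.7, 133.9 and 135.1 TPM in heated wild type against 13.3 to 16.3 TPM without heat, 10.1-fold higher by means (log2 difference 3.24). The difference placed it 135th among 18977 entries, and it was not tested, since these heated libraries are those on which the gene was chosen. Sept9, a SEPT3 subgroup gene used by many somatic cells, stood at 154.5, 169.2, 144.7 and 143.3 TPM, 7.81-fold higher (adjusted p = 4.471e-16). The ranges of these 2 genes in heated wild type overlapped. Sept6, the X-linked member of the SEPT6 subgroup, rose 5.39-fold to 93.2 ± 7.59 TPM (SD, n = 4). Over the 871 X-linked entries tested, 574 rose and 250 fell, with a median log2 difference of 1.33, against 2.36 for Sept6. Sept11 and Sept8, of the same subgroup, rose 5.40-fold to 12.98 ± 1.33 TPM and 4.47-fold to 10.2 ± 0.930 TPM. Sept7, a core subunit of septin rods, rose 2.76-fold to 69.6 ± 6.10 TPM. The heated libraries lay above all unheated ones for Sept9, Sept6, Sept11, Sept8 and Sept7. In 86.5% of all entries the heated and unheated groups did not overlap.

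Sept2, a core septin of dividing cells, had the smallest differences of the members. The second entry rose 1.27-fold to 104.4 ± 6.33 TPM (adjusted p = 0.0001688), while the first stood at 54.6 ± 2.91 TPM without and 55.5 ± 7.64 TPM with heat (log2 difference 0.01 ± 0.13, adjusted p = 0.9248). Summed, the 2 entries gave 136.8 ± 8.37 and 159.9 ± 12.9 TPM (log2 difference 0.22 ± 0.08, adjusted p = 0.01773). Scaling by the median of ratios shifts this comparison by -0.14 on the log2 scale, which turns the first entry to -0.13 (adjusted p = 0.3106).

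The rising septins moved beside somatic markers. The summed level of the Sertoli cell list was 9.13-fold higher, leukocytes 6.22-fold, Leydig cells 4.55-fold, peritubular myoid cells 4.11-fold and endothelium 3.05-fold, with no overlap between heated and unheated wild-type libraries in any of them. All 12 Sertoli, 9 Leydig, 7 peritubular, 10 leukocyte and 8 endothelial genes rose. The undifferentiated spermatogonia list was 3.01-fold higher in sum, with 4 of its 5 tested genes higher and Id4 lower, at 9.94 TPM without and 6.11 TPM with heat. Its sum rests largely on Etv5 (9.25 and 53.6 TPM), and without that gene it was 1.36-fold higher. The round spermatid list, with 12 of its 13 genes lower, moved the other way. None of these lists had a gene at 0 in every library of a group. The part of the cell mix in each septin's change was not tested.

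After heat in the knockout Sept12 fell, Sept4 did not pass the test, and Sept9, Sept6, Sept11, Sept8 and Sept7 rose. Of the 10 entries other than Sept14, 9 passed, 5 higher and 4 lower, where 82.8% of all entries were called, 41.3% higher and 41.5% lower. Heated and unheated ranges did not overlap in any of the 10, against 69.7% of all entries. Sept4 stood at 136.5, 112.9, 128.1, 108.9 and 129.8 TPM in the 5 heated knockout libraries. All lie below the unheated knockout range of 138.2 to 155.7 TPM, 1.20-fold lower by means, and the difference missed the threshold (log2 -0.26 ± 0.12 SE, adjusted p = 0.05606). The Sept4 call depends on the settings. It passes with median-of-ratios scaling (-0.31, adjusted p = 0.02965), with only the 2 groups in the fit (0.00163), with the replicate number as a block (0.04099) and without knockout heat replicate 1 (0.04414), and its sign turns with quantile normalization (0.09, adjusted p = 0.4945). Sept12 stood at 138.1, 124.7, 137.6, 125.0 and 138.1 TPM, 1.87-fold lower (adjusted p = 1.623e-08). Beside these genes the summed round spermatid list was 1.88-fold lower and the elongating spermatid list 1.59-fold higher, with all 11 of its genes called higher.

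**Figure D2:**
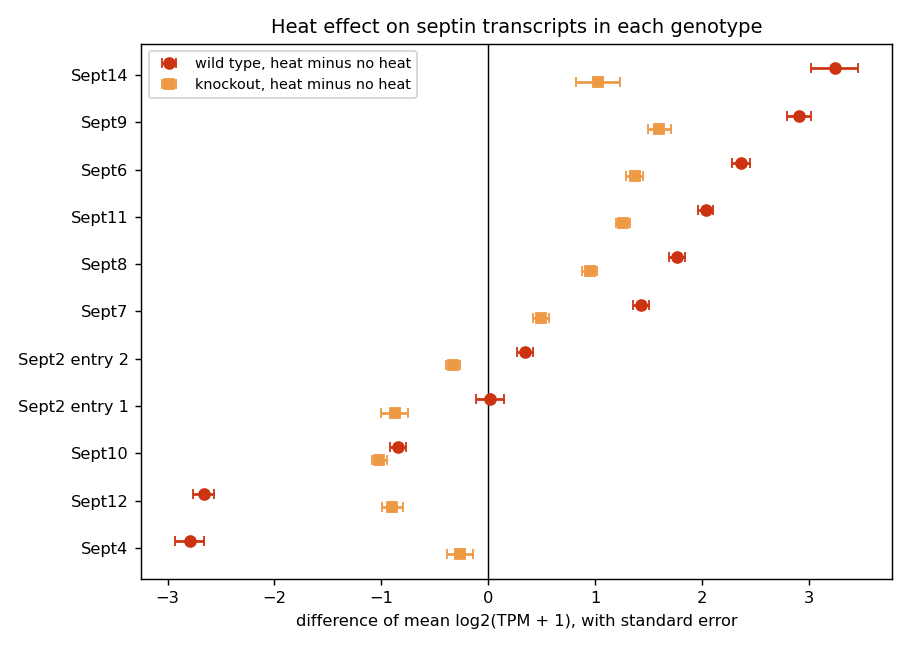
Heat effect on each septin entry (y axis) as the difference of mean log2(TPM + 1), heat minus no heat (x axis), in wild type (circles) and in the knockout (squares); bars are standard errors from limma. The differences above 0 of Sept14, Sept9, Sept6, Sept11, Sept8 and Sept7 are smaller in the knockout, Sept4 moves from -2.79 to -0.26, Sept10 lies at -0.85 and -1.02, and the 2 Sept2 entries lie below 0 in the knockout only.

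Sept10 fell in the knockout as well. It stood at 45.4, 37.2, 35.6, 41.99 and 49.9 TPM in the heated knockout, 2.03-fold lower than without heat (adjusted p = 1.168e-11). Both Sept2 entries fell. The first stood at 31.98, 28.1, 20.5, 42.3 and 36.9 TPM, 1.81-fold lower (adjusted p = 1.243e-06). The second was 1.26-fold lower at 67.7 ± 6.94 TPM (SD, n = 5, adjusted p = 0.0001737), a call that quantile normalization ends (log2 -0.03, adjusted p = 0.6811). Their sum went from 143 ± 8.72 to 99.6 ± 14.3 TPM (log2 -0.53 ± 0.08, adjusted p = 2.992e-06).

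Sept14 was the most uneven septin in the heated knockout. It stood at 29.9, 30.8, 15.3, 61.3 and 44.2 TPM in replicates 1 to 5, against 12.3 to 18.2 TPM without heat, 2.30-fold higher by means (log2 1.03, not tested). Replicate 3 lies inside the unheated range and replicate 4 is the highest, so the groups overlap, and the SD of log2(TPM + 1) was 0.72 against 0.13 in heated wild type. Without replicate 3 the difference is 1.29 and without replicate 4 it is 0.81. Replicate 3 was also the lowest and replicate 4 the highest of the 5 libraries for Sept6, Sept7, Sept11 and the first Sept2 entry. In the Sertoli list replicate 4 was likewise the highest, at 10561 TPM, but replicate 1 the lowest, at 7151 TPM.

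Sept9 rose 3.15-fold in the knockout, to 58.8, 91.4, 73.5, 96.02 and 64.7 TPM (adjusted p = 1.106e-11). Sept11 rose 2.93-fold to 7.86 ± 0.777 TPM, Sept6 2.66-fold to 56.2 ± 7.29 TPM, Sept8 2.27-fold to 6.23 ± 0.670 TPM and Sept7 1.43-fold to 39.7 ± 4.82 TPM, each above all unheated knockout libraries. The X-linked entries had a median log2 difference of 0.65 here, against 1.37 for Sept6. The summed Sertoli list was 3.23-fold higher, Leydig cells 2.89-fold, leukocytes 2.71-fold, peritubular myoid cells 2.16-fold and endothelium 1.88-fold beside them.

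The summed level of the 13 septins, Sept14 included, overlapped among 3 of the 4 groups and was lower in the heated knockout, with unlike shares of the genes. The sum was 778.5 to 806.4 TPM in unheated wild type, 786.4 to 798.8 TPM in the unheated knockout and 745.9 to 837.1 TPM in heated wild type, whose ranges overlap, and 606.9 to 716 TPM in the heated knockout, below every other library. Sept14, on whose heated values the set was chosen, makes up 142.8 TPM of the mean sum in heated wild type and 36.3 TPM in the heated knockout. The lower sum in the heated knockout is thus a description that was not tested, and no sum without Sept14 is given. After heat in wild type Sept12 and Sept4 held 5.27% and 2.83% of the sum on average, Sept2 over both entries held 20.3%, and Sept9 and Sept14 held 19.4% and 18.1%. In the heated knockout Sept12 and Sept4 held 20.0% and 18.6%, Sept2 held 14.9%, and Sept9 and Sept14 held 11.5% and 5.34%. By subgroup, the SEPT6 genes (Sept6, Sept8, Sept10, Sept11 and Sept14) held 15.1% before and 38.8% after heat in wild type, and 22.2% after heat in the knockout. Within these shares Sept14, the gene on which the set was chosen, held 1.80%, 18.1% and 5.34% of the sum. Sept7, alone in its subgroup, held 3.19%, 8.85% and 5.95%.

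**Figure D3:**
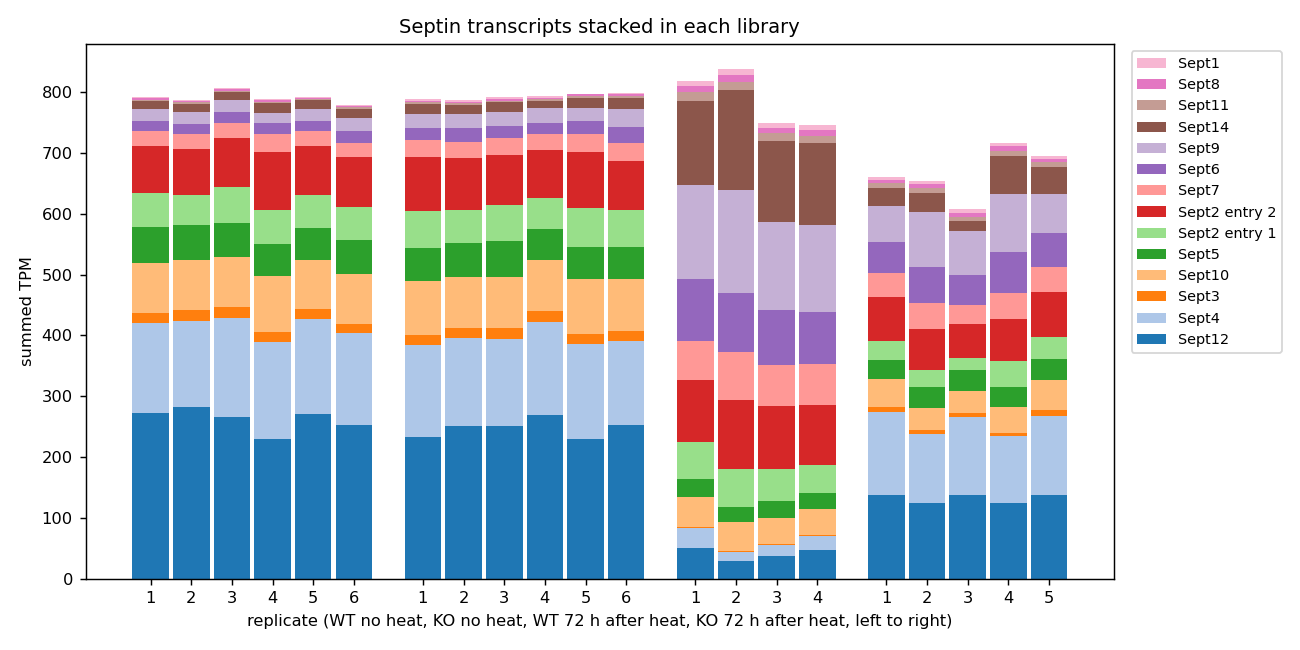
Summed TPM of the 13 septins (y axis, linear from 0), 1 stacked bar per library, with libraries by replicate number within the 4 groups on the x axis. Sept12 and Sept4 fill a large share of each bar except in heated wild type, where Sept2, Sept9 and Sept14 are wide. With Sept14 included, the heated knockout bars are the shortest, at 606.9 to 716 TPM.

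Without heat no septin differed between genotypes past the threshold in the fit of all 4 groups. None of the 11 entries was called (limma, adjusted p of 0.07876 to 0.9156), where 1.33% of all entries were, 1.25% higher and 0.0843% lower (237 and 16 entries, or 44 and 26 with quantile normalization). Sept6, Sept9 and Sept8 had the lowest p-values of the 11. Sept6 stood at 16.3 to 18.7 TPM in wild type (median 17.3) and 18.5 to 25.5 TPM in the knockout (median 20.7), 1.22-fold higher, with a log2 difference of 0.27 and a 95% interval of 0.11 to 0.43. Sept9 stood at 17.1 to 21.9 TPM (median 19.6) and 22.3 to 30.03 TPM (median 23.5), 1.24-fold higher, interval 0.09 to 0.51. It was the 1 entry whose groups did not overlap, against 4.97% of all entries. Sept8 was 1.21-fold higher, at 2.74 ± 0.282 against 2.27 ± 0.172 TPM (interval 0.05 to 0.33). The main fit shares 1 spread per gene over all 21 libraries. For Sept9 the SD of log2(TPM + 1) was 0.11 and 0.15 in unheated wild type and knockout, and 0.11 and 0.30 with heat. With only the 2 unheated groups in the fit, Sept6 and Sept9 pass (adjusted p = 0.03033 and 0.02804). That fit calls 1312 of 18977 entries in place of 253. Sept14 stood at 13.3 to 16.3 TPM (median 13.8) in wild type and 12.3 to 18.2 TPM (median 16.4) in the knockout, with overlap (log2 0.14, adjusted p = 0.8479). The summed Sertoli list was 1.28-fold higher in the unheated knockout with no overlap, and Leydig cells 1.31-fold higher with overlap. Knockout control replicate 6 was the highest library of its group for Sept6, Sept8, Sept9, Sept14 and the Sertoli list (3294 against 2470 to 2621 TPM). Intervals for Sept12 and Sept4 ran from -0.27 to 0.11 and from -0.30 to 0.19.

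After heat the genotypes differed most in Sept4, Sept14 and Sept12. Sept14, the gene on which the set was chosen, stood at 133.9 to 163.7 TPM in the 4 heated wild-type libraries and at 15.3 to 61.3 TPM in the 5 heated knockout libraries, 3.93-fold lower by means (log2 difference -2.08), the 35th largest fall of 18977 entries. The other 9 genes fill 10 entries, of which 9 passed the test, 7 lower and 2 higher in the knockout. The background was 83.5% of all entries called, 49.0% lower and 34.4% higher, and in 72.3% of all entries the heated groups did not overlap, as in 9 of these 10. Sept4 was 5.54-fold higher in the heated knockout (log2 2.47 ± 0.14 SE, adjusted p = 2.991e-12) and Sept12 3.21-fold higher (1.69 ± 0.10, adjusted p = 1.183e-11). Both were higher in 5 of 5 heated knockout libraries than in any heated wild-type library, as was each of the summed lists of round and of elongating spermatids, 2.90-fold and 2.16-fold.

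Sept9 was 1.99-fold lower in the heated knockout (log2 -1.01 ± 0.12, adjusted p = 1.056e-07), Sept7 1.75-fold, Sept6 1.66-fold, Sept11 1.65-fold and Sept8 1.63-fold. The first Sept2 entry was 1.74-fold lower and the second 1.54-fold. In each of them all 5 knockout libraries lay below all 4 wild-type libraries. Beside them the summed Sertoli list was 2.20-fold lower, leukocytes 1.80-fold, peritubular myoid cells 1.64-fold and endothelium 1.47-fold, and the Leydig list was 1.20-fold lower with overlap. Sept10 was 1.10-fold lower with overlapping ranges (log2 -0.14 ± 0.07, 95% interval -0.29 to 0.02, adjusted p = 0.09048). It passes without knockout heat replicate 5 (-0.20, adjusted p = 0.008393).

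**Figure D4:**
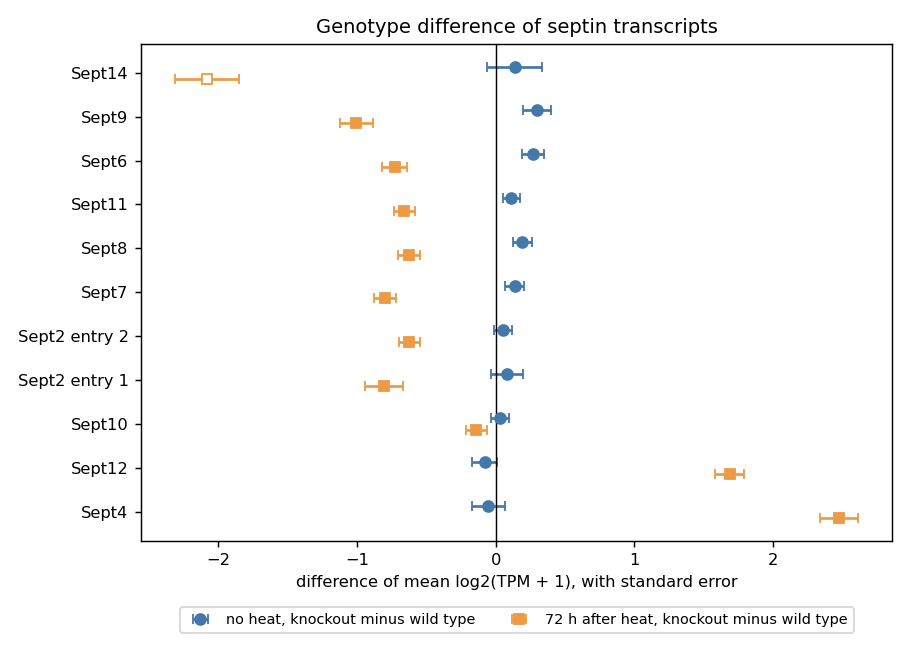
Difference of mean log2(TPM + 1), knockout minus wild type (x axis), for each septin entry (y axis) without heat (circles) and 72 h after heat (squares), with standard errors from limma; the open square is Sept14 after heat, which was not tested because it was used to choose the genes. Without heat all values lie between -0.08 and 0.30, and after heat Sept4 and Sept12 lie at 2.47 and 1.69 while the other entries lie at or below -0.14.

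The heat effects themselves were compared between genotypes for the 9 genes other than Sept14, over the same libraries as the comparisons above. Of their 10 entries 9 passed, 7 with a lower and 2 with a higher effect in the knockout, where 80.7% of all entries were called, 47.6% lower and 33.2% higher. The difference was 2.53 ± 0.18 for Sept4 (adjusted p = 4.223e-10) and 1.77 ± 0.14 for Sept12 (adjusted p = 1.035e-09) on the log2(TPM + 1) scale. It was -1.30 ± 0.15 for Sept9, -0.99 ± 0.12 for Sept6, -0.94 ± 0.11 for Sept7, -0.82 ± 0.10 for Sept8 and -0.77 ± 0.10 for Sept11. For the Sept2 entries it was -0.89 ± 0.18 and -0.68 ± 0.10. Sept10 did not pass (-0.17 ± 0.10, adjusted p = 0.1135; 95% interval -0.38 to 0.03), except without knockout heat replicate 5 (-0.24, adjusted p = 0.01644). Sept14, not tested, had -2.22.

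Sept1, Sept3 and Sept5, the septins outside the set, also split into rising and falling genes. Sept3, a SEPT3 subgroup gene known mainly from neurons, stood at 16.9 ± 1.001 TPM without and 1.38 ± 0.283 TPM with heat in wild type (12.3-fold lower, adjusted p = 1.533e-17) and at 17.0 ± 0.746 and 7.37 ± 1.11 TPM in the knockout (2.30-fold lower, adjusted p = 3.332e-11). Among the septins it lay nearest to Sept12 over the 21 libraries, with a root-mean-square difference of 0.18 between the centred log2(TPM + 1) values. Sept5, a synaptic septin, fell 2.09-fold and 1.65-fold and, among the septins, lay nearest to Sept10, at 0.20. It overlaps Gp1bb on the same strand, which stood at 0.91 to 2.43 TPM in unheated and 22.3 to 25.9 TPM in heated wild type. Sept1 rose 4.93-fold and 2.33-fold, from 1.63 ± 0.249 TPM in unheated wild type, and overlaps Zfp553 on the opposite strand, at 2.82 to 3.11 TPM before and 12.1 to 15.1 TPM after heat.

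Genes with a pattern most like Sept14 were found by the same distance over all 21 libraries, leaving out predicted genes and clone names. They were Scml1, Atp7a, Wnk3, Lonrf3 and Ccbe1, at 0.22 to 0.26, and 4 of the 5 lie on chromosome X, unlike Sept14. Of the 18977 entries tested, 871 are X-linked. The distances hold the heated values on which Sept14 was chosen, and a link to chromosome X was not tested. Scml1 had means of 3.38 TPM before and 32.8 TPM after heat in wild type, and 3.21 and 8.23 TPM in the knockout. The copper transporter gene Atp7a had 2.68 and 23.5 TPM, and 3.14 and 7.69 TPM. Nearest to Sept4, the member with the largest fall in wild type, were Sh3d21, Trim17, Tmco5, Aknaos and Ccdc159, at 0.07 to 0.11. Sh3d21 had means of 659 and 109 TPM before and after heat in wild type, and 649 and 550.2 TPM in the knockout. The libraries share group structure, so these distances are a description.

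Known partners of septins in sperm also moved in both directions. Their list held 9 genes, of which 3 rose and 5 fell after heat in wild type, and 2 rose and 4 fell in the knockout. Of all entries 47.0% rose and 44.6% fell in wild type, and 41.3% rose and 41.5% fell in the knockout. The counts therefore say nothing particular about these partners. Dnajb13, a cochaperone found at the annulus, stood at 365.6 ± 13.3 TPM without and at 16.4 to 37.9 TPM with heat in wild type (log2 -3.88 ± 0.14, adjusted p = 1.294e-16), and at 349.3 ± 11.6 and 177.1 ± 22.9 TPM in the knockout. Slc26a8, an anion transporter of the annulus, fell from 104.8 ± 5.47 to 7.33 ± 2.03 TPM in wild type. In the knockout it fell from 99.7 ± 4.60 to 23.1 ± 5.42 TPM, a difference of heat effects of 1.61 ± 0.18 (adjusted p = 1.365e-07). Spag4 and Cby3 are named after their values were seen. Spag4, a nuclear envelope protein that binds SEPT12, fell from 312.3 ± 20.7 to 19.5 ± 13.1 TPM in wild type, and stood at 306.7 ± 12.7 and 236.5 ± 19.99 TPM in the knockout (adjusted p = 0.07923). Cby3, which helps place the annulus, fell in wild type, where the unheated libraries had 15.2 to 26.1 TPM and the heated ones 5.42 to 8.88 TPM, and rose from a mean of 20.9 to 29.3 TPM in the knockout (adjusted p = 0.003598). The actin crosslinker gene Actn4 and the lamin gene Lmnb1 had the largest rises by moderated t in wild type, to 60.3 ± 2.50 and 15.1 ± 1.28 TPM.

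Regulators of septin assembly were led by Cdc42, the small GTPase whose effector proteins bind septins. It rose from 54.2 ± 3.46 to 298.7 ± 30.2 TPM in wild type (log2 2.44 ± 0.07, adjusted p = 2.044e-17). In the knockout it rose from 65.7 ± 4.43 to 158.7 ± 15.0 TPM. It was the 1 gene of its list that passed between the unheated genotypes (0.27 ± 0.07, adjusted p = 0.0456), where 1.33% of all entries did. Of the 7 genes 6 were tested, of which 4 rose and 2 fell in wild type and 3 rose and 2 fell in the knockout. In these comparisons 91.6% and 82.8% of all entries were called, so the counts are not particular to the regulators. The effector gene Cdc42ep5 rose from a median of 11.1 TPM to a median of 64.3 TPM in wild type, while Cdc42ep3 fell from 144.7 ± 11.5 to 16.97 ± 7.46 TPM. In the knockout Cdc42ep3 fell to 51.95 ± 9.78 TPM. Anln, the scaffold that recruits septins to the cleavage furrow, fell from 14.1 ± 1.04 to 11.7 ± 0.601 TPM in wild type (adjusted p = 0.009325). Its knockout levels were 15.6 ± 0.805 and 9.53 ± 1.75 TPM.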

How the data were processed

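Per the labels' protocols, RNA was extracted with Trizol and stranded mRNA libraries were read on an Illumina HiSeq instrument. Reads were aligned with STAR to mm10, per the submitters' processing notes. No source used here names the annotation, the abundance tool or the strand setting of the counting. Values were deposited as TPM, which sum to the same total in every library and so hide the depth. Precision therefore comes from replicates, which the labels' protocols call biological, without saying that each is a separate animal, so p-values measure the spread between these samples.

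From these values log2(TPM + 1) was computed, and the 18977 of 55573 entries whose mean reached 1 TPM were fitted with limma 3.58.1 in R 4.3.3, as 1 model of 4 group means over 21 libraries with a mean-variance trend. P-values are two-sided, adjusted by Benjamini-Hochberg over all entries tested. The procedure was run on simulated data with normal errors, 1 spread per gene and effects in few genes. That run does not cover these data, where most entries were called with heat and spreads differed between groups. Errors are SD for TPM and moderated SE for log2 differences; folds are ratios of mean TPM. Levels of lists are sums of TPM.

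All 10 members are named in each comparison. From each of the lists of septin regulators and annulus partners 2 genes in each direction are named. They have the largest moderated t for heat in wild type. The 5 genes nearest to Sept14 and to Sept4 are also named, leaving out predicted genes and clone names. Marker lists covered undifferentiated and differentiating spermatogonia, spermatocytes, round and elongating spermatids, Sertoli, Leydig, peritubular myoid, leukocyte, endothelial and epididymal genes. Counts of septins called leave out Sept14 where heated libraries enter. The members and lists were chosen with earlier results of these data known. Summing the 2 Sept2 entries was chosen after seeing the data. Alternatives were another pseudocount, 2 other filters, 2 other scalings, a fit of the compared groups, no trend, a replicate block and leaving out each library.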

Additional observations from a re-analysis of the deposited data

Results flagged for a closer look

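The heat effect differed between genotypes, by the direct test in limma, for 9 of the 10 septin entries other than Sept14. As heat effect in the knockout minus that in wild type (log2), the values were 2.53 for Sept4 and 1.77 for Sept12, whose fall was smaller in the knockout. They were -1.30 for Sept9, -0.99 for Sept6, -0.94 for Sept7, -0.82 for Sept8 and -0.77 for Sept11, whose rise was smaller in the knockout. For Sept2 they were -0.89 for the first entry and -0.68 for the second, where the knockout fell. At the same threshold 80.7% of all entries tested were called, so such differences are common in the table.

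In 5 of 44 sets of values (11 entries in 4 groups) 1 library lay apart from the others of its group by Dixon's ratio, which chance alone gives in about 1 in 20. Wild-type control replicate 4 was the highest of its group for the second Sept2 entry (95.9 TPM against 76.3 to 82.1), Sept7 (28.96 against 24.1 to 25.1) and Sept10 (91.2 against 80.2 to 83.2). The same library held the lowest summed level of round spermatid genes in its group, 2996 TPM. Knockout control replicate 6 was the highest for Sept9, at 30.03 TPM against 22.3 to 24.1. Wild-type heat replicate 2 was the highest for Sept14, at 163.7 TPM against 133.9 to 138.6, and it also held the highest summed Sertoli list of all libraries, 21880 TPM. The heated libraries were used to choose Sept14, so its set among the 5 is a description and not a test.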

How the results depend on the processing

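For the genotype comparisons and the difference in heat effect, the number of septin entries called stayed within 1.5 times the reported number in all settings but 1. The counts by setting for heat in each genotype hold Sept14 and are not given. With only the groups compared in the fit, 2 entries were called between the unheated genotypes in place of 0, and over all entries 1312 in place of 253. That count over all entries was 454 with a pseudocount of 0.1, 80 with no filter and 70 with quantile normalization. Leaving out each library in turn gave 0 entries called between the unheated genotypes, 9 to 10 between the heated ones and 9 to 10 for the difference in heat effect. The first Sept2 entry for heat in wild type turned from 0.01 to -0.13 with median-of-ratios scaling, and to -0.03, -0.05 and -0.01 without wild-type heat replicates 1 and 2 and without wild-type control replicate 2; the cause was not tested. Sept4 for heat in the knockout turned to 0.09 with quantile normalization. Median-of-ratios scaling shifts log2 differences by -0.14 (heat, wild type), -0.04 (heat, knockout), -0.02 (genotype, no heat), 0.08 (genotype, heat) and 0.10 (difference in heat effect). Correlations of deviations over genes were -0.23 to 0.31 between same-numbered libraries and -0.35 to 0.40 between others, and only 4 of the 28 same-numbered pairs were above 0.1, so the numbers were not taken to pair samples. With the replicate block, Sept4 for heat in the knockout passed (-0.28, adjusted p = 0.04099), and the block changed no other septin call. Without depth, counting error at Sept8 and Sept11, the lowest members, is unknown.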
